A study of Mus musculus with 2 samples.

Results

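The genes described here are 10 transcriptional regulators of neuronal differentiation: the basic helix-loop-helix (bHLH) genes Neurod1, Neurod2, Neurod4, Neurod6, Nhlh1 and Nhlh2, the zinc-finger genes Insm1, Myt1 and Myt1l, and the zinc-finger repressor gene Rest. They were chosen by name and found by gene identifier in both deposited gene tables, so that they are 10 of 43346 mouse genes and 10 of 21474 protein-coding genes. Total RNA, selected for longer molecules, came from the neural tube, from which brain and spinal cord form, of strain B6NCrl mice at embryonic day 13.5. The series has 1 group of 2 libraries, which the labels number as biological replicates 1 and 2. Each was made from 10 ng of RNA with spike-ins added. The labels describe pooled male and female embryos and give both libraries 1 donor entry, without saying how many embryos or litters entered each pool, and no other age, genotype or treatment.

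Neurons are born when proneural bHLH factors such as neurogenins switch on later factors, among them the NeuroD and Nhlh genes, which bind E-box sequences as partners of E proteins. Insm1 acts in progenitors that are about to become neurons, and Myt1 and Myt1l repress progenitor and non-neuronal programmes. Rest works against neuronal genes: in progenitors and non-neuronal cells it binds the RE1 element beside them and recruits corepressors, and it declines as neurons mature.

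All 10 genes were detected, taken as 1 TPM or more in both libraries (TPM is transcript abundance corrected for length and scaled to a fixed total), beside 61.8% of protein-coding genes. Their levels ran from 83.3 TPM for Neurod6 to 1.79 TPM for Insm1, and Rest lay at 8.41 TPM. By counts scaled for depth, Neurod1 was 1.20-fold and Rest 1.25-fold higher in replicate 2, and Neurod6 was 1.09-fold lower. No gene of the 10 differed 2-fold between the libraries.

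The relation between the family members is visible in their DNA-binding region. The 150 coding bases below are the in-frame stretch in which the NeuroD genes were most alike, found without gaps. They are shown because reads from such similar stretches could have been shared between paralogs. Sequences are from GENCODE M21 transcripts (GRCm38), 5′ to 3′ on the transcript strand, and capitals mark bases that differ from Neurod1.
Neurod1: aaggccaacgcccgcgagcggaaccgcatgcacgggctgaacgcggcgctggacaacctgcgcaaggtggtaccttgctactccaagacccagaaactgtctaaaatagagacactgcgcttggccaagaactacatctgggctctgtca
Neurod2: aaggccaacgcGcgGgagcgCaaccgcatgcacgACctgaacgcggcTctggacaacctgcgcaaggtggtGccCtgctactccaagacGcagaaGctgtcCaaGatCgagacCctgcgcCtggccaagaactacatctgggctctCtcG
Neurod6: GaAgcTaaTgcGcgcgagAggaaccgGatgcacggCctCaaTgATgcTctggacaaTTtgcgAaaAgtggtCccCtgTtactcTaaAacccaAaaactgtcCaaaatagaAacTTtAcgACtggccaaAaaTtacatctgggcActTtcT
Neurod4: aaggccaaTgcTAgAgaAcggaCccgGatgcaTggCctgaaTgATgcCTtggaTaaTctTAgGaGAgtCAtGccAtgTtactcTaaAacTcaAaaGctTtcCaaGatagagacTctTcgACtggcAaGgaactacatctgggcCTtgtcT
The stretches lie at chr2:79454576-79454725, chr11:98327812-98327961, chr6:55679210-55679359 and chr10:130270984-130271133, all on the minus strand and each inside the 1 coding exon of its gene. Against Neurod1, 88.7% of the bases were identical in Neurod2, 76.7% in Neurod6 and 71.3% in Neurod4. Over the whole coding sequences, the longest exact run shared by Neurod1 and Neurod2 was 25 bases.

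The most similar stretch of the Nhlh pair is shown for the same reason, with capitals in Nhlh1 marking differences from Nhlh2.
Nhlh2: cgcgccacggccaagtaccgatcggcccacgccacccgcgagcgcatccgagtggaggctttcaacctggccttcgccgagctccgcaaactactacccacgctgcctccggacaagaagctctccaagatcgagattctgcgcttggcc
Nhlh1: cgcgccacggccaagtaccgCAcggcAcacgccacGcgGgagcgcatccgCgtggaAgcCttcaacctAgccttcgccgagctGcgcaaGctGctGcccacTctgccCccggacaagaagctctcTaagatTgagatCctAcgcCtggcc
These lie at chr3:102012870-102013019 (plus strand) and chr1:172053938-172054087 (minus strand), again in 1 coding exon each, and 86.7% of their bases were identical. Their longest shared run was 20 bases, and that of Myt1 and Myt1l was 17 bases. The posterior standard deviation of the count, which the deposited tables give as the uncertainty of assigning reads, was 0 for every gene of the 10 except Neurod1. There it was 0.44 of 1327.85 reads in replicate 1 and 0.25 of 1054 in replicate 2. Neurod1 also lies inside the span of Cerkl, a gene on the same strand with 32.37 and 11.3 reads. The source of the Neurod1 uncertainty was not tested.

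Neurod6 was the most abundant of the 10. This factor of maturing neurons (ENSMUSG00000037984.8, chromosome 6, 55677822 to 55681263) had 85.2 TPM in replicate 1 from 3960 reads and 81.3 TPM in replicate 2 from 2394 reads. The mean was 83.3 ± 2.78 TPM (SD, n = 2), above 91.4% of protein-coding genes. Neurod6 is best known from the developing cortex, so forebrain genes were examined beside it. Of 8 forebrain markers 1 was detected, the transcription factor gene Lhx2 at 3.21 and 2.80 TPM. The whole list summed to 3.58 and 4.65 TPM, each of the other genes lay at or under 0.56 TPM in both libraries, and Emx1 and Six3 had 0 reads in replicate 1. The part of forebrain tissue in the Neurod6 level was not tested.

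Neurod1, which drives neuronal and endocrine differentiation (ENSMUSG00000034701.9, chromosome 2, 79452521 to 79456751), had 22.3 TPM in replicate 1 and 28.0 TPM in replicate 2. Neurod2, a close relative (ENSMUSG00000038255.6, chromosome 11, 98325415 to 98329648), had 20.3 and 20.1 TPM. The genes were therefore near each other in replicate 1 and apart in replicate 2, with Neurod1 the higher in both. Neurod6 stood 4.20-fold and 4.04-fold above Neurod2 in the libraries.

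Neurod4, which acts early in neuronal differentiation (ENSMUSG00000048015.3, chromosome 10, 130268152 to 130280240), was the lowest of the family at 4.09 TPM in replicate 1 and 4.67 TPM in replicate 2. It rested on 300 and 217 reads, and its 95% counting intervals, 3.64 to 4.58 and 4.07 to 5.33 TPM, overlapped. Neurod1 was 5.46-fold higher than Neurod4 in replicate 1 and 5.99-fold in replicate 2. Neurod6 was 20.8-fold and 17.4-fold higher. The family thus spanned more than a 17-fold range inside each library, far beyond the spread between libraries for any of its members.

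Nhlh2 and Nhlh1, factors of newly formed neurons, differed in level despite their likeness in sequence. Nhlh2 (ENSMUSG00000048540.7, chromosome 3, 102010076 to 102015492) had 42.4 and 44.5 TPM and was the second most abundant of the 10. Nhlh1 (ENSMUSG00000051251.3, chromosome 1, 172052292 to 172057573) had 8.10 and 7.91 TPM. Nhlh2 was 5.23-fold higher in replicate 1 and 5.63-fold higher in replicate 2, a log2 ratio of 2.44 ± 0.08 (SD, n = 2). With 2 values a side, the smallest p an exact two-sided permutation test could give is 0.333, so ratios between genes are given with their spread and no test.

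The Myt genes were close to each other. Myt1l, known for helping to turn other cell types into neurons (ENSMUSG00000061911.10, chromosome 12, 29528384 to 29923213), had 33.0 and 33.6 TPM. Myt1, a regulator of early neurons (ENSMUSG00000010505.11, chromosome 2, 181763332 to 181827797), had 29.4 and 32.1 TPM. Myt1l was the higher in both libraries, by log2 0.17 and 0.07. With the deposited posterior mean TPM in place of TPM, these differences were 0.10 and -0.04, so that the order turned in replicate 2 and the pair could not be ranked. St18, the remaining gene of that family, had 23.5 and 26.1 TPM.

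Insm1, a zinc-finger factor of neurogenic progenitors and endocrine cells with 1 exon (ENSMUSG00000068154.5, chromosome 2, 146221921 to 146225020), was the least abundant at 1.64 and 1.95 TPM. It rested on 111 and 84 reads, with 95% counting intervals of 1.35 to 1.98 and 1.56 to 2.41 TPM, which overlap. It exceeded its relative Insm2, at 0.81 and 1.00 TPM, by 2.02-fold and 1.95-fold. Of 6 neuroendocrine and sympathetic markers, 3 were detected.

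Rest (ENSMUSG00000029249.11, chromosome 5, 77265491 to 77286432) had 7.32 TPM in replicate 1 and 9.51 TPM in replicate 2, from 1142 and 941 reads. Its 95% counting intervals, 6.90 to 7.76 and 8.91 to 10.1 TPM, did not overlap. The mean of 8.41 ± 1.55 TPM (SD, n = 2) lay above 56.7% of protein-coding genes. Myt1l exceeded Rest by 4.50-fold in replicate 1 and 3.53-fold in replicate 2.

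Ordered by mean TPM, the genes ran Neurod6, Nhlh2, Myt1l, Myt1, Neurod1, Neurod2, Rest, Nhlh1, Neurod4 and Insm1. Among neighbours, the library values overlapped only for Rest and Nhlh1, whose log2 ratio was -0.15 in replicate 1 and 0.27 in replicate 2. The next smallest mean separations were log2 0.12 ± 0.07 (SD, n = 2) for Myt1l over Myt1 and 0.30 ± 0.14 for Myt1 over Neurod1. In bulk tissue a level combines the number of cells that express a gene with the RNA in each, and fewer cells of a type and less RNA per cell cannot be told apart.

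**Figure D1:**
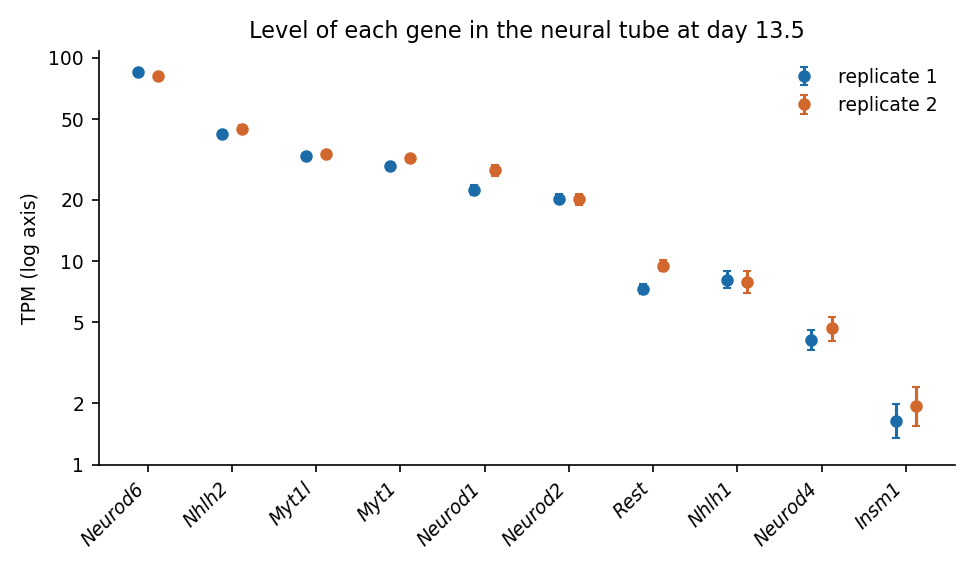
Level of each of the 10 genes in replicates 1 and 2 in TPM on a log axis, with bars for the 95% counting interval of each library. Neurod6 lies highest at 85.2 and 81.3 TPM and Insm1 lowest at 1.64 and 1.95 TPM, and the library points are visibly apart for Neurod1 and Rest.

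The libraries themselves held 34125110 and 22311849 estimated reads, of which 32151162 and 21084234 fell on mouse genes. All 8 neural tube and axial markers were detected. Hox genes, which mark position along the body axis, did not all differ in 1 direction. Hoxd10, a gene of lumbar levels, had 99.3 and 66.4 TPM. Hoxa5, a gene of cervical levels named after its values were seen, had 33.6 and 50.9 TPM. Of the other Hox genes listed, Hoxc8 had 57.0 and 65.1 TPM and Hoxb4 5.66 and 6.62 TPM. The differences of Hoxd10, Hoxa5 and Hoxc8 passed the exact test described below at an adjusted p under 0.05, and that of Hoxb4 did not. Tissue outside the tube was present, with all 8 sensory ganglion markers in the tables detected at summed levels of 788.9 and 621.8 TPM. Summed skeletal muscle markers were 121.2 and 206.2 TPM, epidermal markers 8.96 and 22.7 TPM, and mesenchymal markers 748.5 and 791.6 TPM. Markers of dividing cells summed to 277.5 and 345.0 TPM.

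Each gene was then set between the libraries with a two-sided exact binomial test on rounded estimated counts, adjusted by the Benjamini-Hochberg method over 17428 genes. Log2 ratios set replicate 2 over replicate 1 after scaling of the counts for depth, and each SE comes from the number of reads alone. The test compares these libraries with counting noise, not conditions, and its p-values and the intervals above cover counting error only. No gene of the 10 passed an adjusted p of 0.05 with a 2-fold difference, against 2.25% of all genes tested (392 genes). Without a fold limit 3 of 10 passed, and 3 of 10 had an unadjusted p under 0.05. That share was 24.6% over all genes, with 12.8% higher and 11.8% lower in replicate 2, so 3 of 10 is near the background.

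Neurod1 was higher in replicate 2 by log2 0.27 ± 0.06 (SE), or 1.20-fold, with an adjusted p of 0.000119 by the exact binomial test. Rest was higher there by 0.32 ± 0.06, or 1.25-fold, with an adjusted p of 1.05e-05 by the same exact test. Neurod6 was lower by a smaller amount, -0.13 ± 0.04, with an adjusted p of 0.0047 by the exact test. With no fold limit, these 3 genes also passed with DESeq2 size factors, with scaling by total gene counts, with no filter on counts and with posterior mean counts. The other 7 genes did not pass, and their log2 ratios ran from -0.09 for Nhlh1 to 0.20 for Insm1. The median size of the log2 ratio was 0.11 over the 10 genes and 0.14 over all genes tested.

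Markers of some other cell types differed between the libraries too, though not all in 1 direction. Erythroid markers passed the exact test with 2 higher and 2 lower in replicate 2, mesenchymal markers with 2 and 2, and endothelial markers with 1 and 1. Sox2, Pax6, Nes and Hes5, of the neural tube list, did not pass. Beside the higher Rest of replicate 2, 5 of 6 markers of dividing cells passed the exact test in the same direction, from Pcna, the replication clamp, at 82.8 and 96.9 TPM to Mki67, the proliferation marker, at 4.42 and 6.73 TPM. Of the skeletal muscle markers 5 of 6, and of the epidermal markers 5 of 6, were called 2-fold higher in replicate 2, among them the myogenic genes Myog (3.90 and 16.5 TPM) and Myod1 (1.64 and 6.20 TPM) and the basal keratin gene Krt14 (1.18 and 5.49 TPM). Beside Neurod1, which sensory neurons also use, 5 of 8 sensory ganglion markers passed in the opposite direction, such as the peripheral neurofilament gene Prph at 268.1 and 198.2 TPM, and 1 passed in the same direction. The part of these cell types in the Neurod1, Neurod6 and Rest differences was not tested.

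**Figure D2:**
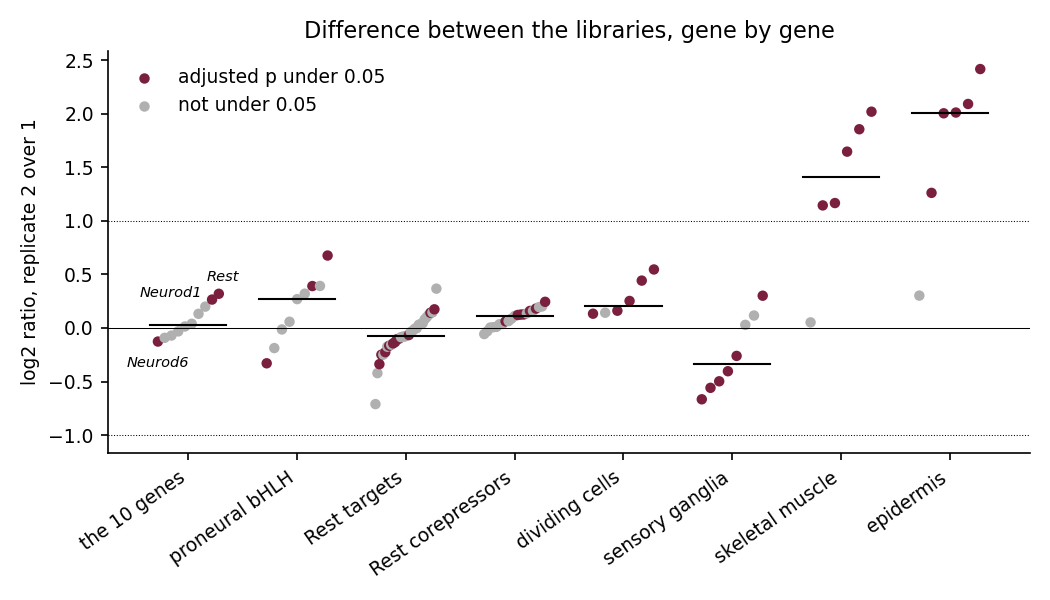
Log2 ratio of replicate 2 over replicate 1 for each tested gene of the 10 and of 7 context lists, with dark points at an adjusted p under 0.05, a black line at the list median and dotted lines at 2-fold. The 10 genes lie within -0.13 and 0.32, while most skeletal muscle and epidermal markers lie above the 2-fold line.

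Among genes that act upstream, 7 of 10 proneural bHLH genes were detected, and 2 were higher and 1 lower in replicate 2 by the test. All 10 lay below Neurod6, Nhlh2, Neurod1 and Neurod2 in mean level. Olig3, of dorsal progenitors, had 20.0 and 16.6 TPM, a log2 ratio of -0.33 ± 0.08 (adjusted p = 0.000607, exact binomial test). Neurog2, which precedes NeuroD genes, had 7.59 and 10.4 TPM, 0.39 ± 0.11 (adjusted p = 0.00367, exact test). The lowest was Atoh7, a retinal factor, at 0.50 and 0.40 TPM. The list's median log2 ratio was 0.27, that of the 10 genes 0.03 and that of all genes tested 0.00.

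The E proteins with which NeuroD and Nhlh factors pair were all detected: Tcf4 had 131.5 and 145.8 TPM, Tcf12 88.0 and 90.4 TPM, and Tcf3 47.1 and 54.2 TPM. Each of the 3 exceeded every NeuroD and Nhlh gene except Neurod6 and, in each library, Tcf4 and Tcf12 exceeded Neurod6 too. All 8 inhibitors of bHLH factors were detected, led by Id genes, which sequester E proteins: Id3 had 205.3 and 179.5 TPM, Id2 184.6 and 191.3 TPM, and Id4 144.5 and 146.5 TPM. The lowest was the Notch effector Hes1 at 14.6 and 19.4 TPM. Of the list only Hes6 passed the exact test higher in replicate 2, by log2 0.12, and only Id3 passed lower, by -0.24.

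Genes switched on in early neurons showed the other end of the cascade. All 20 of the list were detected, with a median of 59.1 TPM against 22.7 TPM for the 10 regulators. The neuronal tubulin gene Tubb3 had 1245 and 1175 TPM, the microtubule regulator Stmn2 818.1 and 794.9 TPM, and the transcription factor gene Sox11 385.0 and 407.0 TPM. The lowest was Ebf3, another transcription factor gene, at 14.8 and 14.6 TPM. Between the libraries 7 passed the exact test higher and 4 lower in replicate 2, beside 12.8% and 11.8% of all genes. Those shares are not matched for read number. By direction alone 10 were higher and 10 lower, and the median log2 ratio of the list was 0.01.

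Rest was present together with its corepressor genes. All 21 were detected, with a median of 32.6 TPM, and 18 of the list's genes lay above Rest itself in mean level. The histone deacetylase gene Hdac2 had 359.2 and 384.5 TPM, the Sin3 scaffold gene Sin3b 119.4 and 124.0 TPM, and the chromatin remodeller gene Smarca4 112.0 and 121.9 TPM. The lowest was Rcor1, which encodes CoREST, at 4.34 and 5.17 TPM. Its relative Rcor2, named after its values were seen, had 23.3 and 23.8 TPM and exceeded Rest by 3.19-fold and 2.50-fold. Between the libraries 7 of 21 passed the exact test higher and 0 lower in replicate 2, beside 12.8% and 11.8% of all genes. Those shares are not matched for read number: Smarca4, with 13932 reads in replicate 1, passed at a log2 ratio of only 0.06. By direction alone 19 were higher and 2 lower, while 50.01% of all genes tested were higher. The median log2 ratio of the list was 0.11, and none reached 2-fold.

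Regulators of Rest protein and splicing were detected for 8 of 8 genes. Casein kinase gene Csnk1e had 202.5 and 209.4 TPM. The neural splicing factor gene Ptbp2 had 141.2 and 152.3 TPM, and Ptbp1, its counterpart in progenitors and non-neuronal cells, 65.0 and 85.0 TPM, so that Ptbp2 exceeded Ptbp1 by 2.17-fold and 1.79-fold. Ptbp1 was higher in replicate 2, as Rest was, by log2 0.24 ± 0.04 (adjusted p = 1.01e-09, exact binomial test). Over the list 2 genes passed the exact test higher and 1 lower in replicate 2, beside 12.8% and 11.8% of all genes, again not matched for read number. By direction alone 5 were higher and 3 lower. The 1 that passed lower was Srrm3, a splicing factor gene named after its values were seen. It had 64.0 and 58.4 TPM, a log2 ratio of -0.21 ± 0.06 (adjusted p = 0.00525, exact test). Srrm4, a splicing factor that makes a neuronal Rest isoform, was the lowest at 13.1 and 14.0 TPM.

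Of 32 genes known as Rest targets, 29 were detected beside Rest, with a median of 21.7 TPM. They spanned from Tubb3 and Stmn2, given above, and the neurofilament gene Nefm at 570.1 and 567.4 TPM, down to Dbh, the noradrenaline synthesis enzyme, at 0.50 and 0.31 TPM. In replicate 2, 22 of 32 targets had a log2 ratio below 0 and 10 above, while 50.01% of all genes tested lay above 0. By the exact test 9 passed lower and 2 passed higher, with a list median of -0.08. The largest difference among those that passed was that of the synaptic gene Stx1a, named after its values were seen, at 68.2 and 58.5 TPM, a log2 ratio of -0.34 ± 0.05 (adjusted p = 5.26e-12, exact test). The 9 targets that passed lower (of 32) stand beside 11.8% of all genes, and the 2 that passed higher beside 12.8%. Those shares are not matched for read number. Tubb3 and Nefm, with 49819 and 41746 reads in replicate 1, passed lower at log2 ratios of only -0.14 and -0.07. In the same direction, 5 of 8 sensory ganglion markers passed, and the part of those cells in the target differences was not tested.

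**Figure D3:**
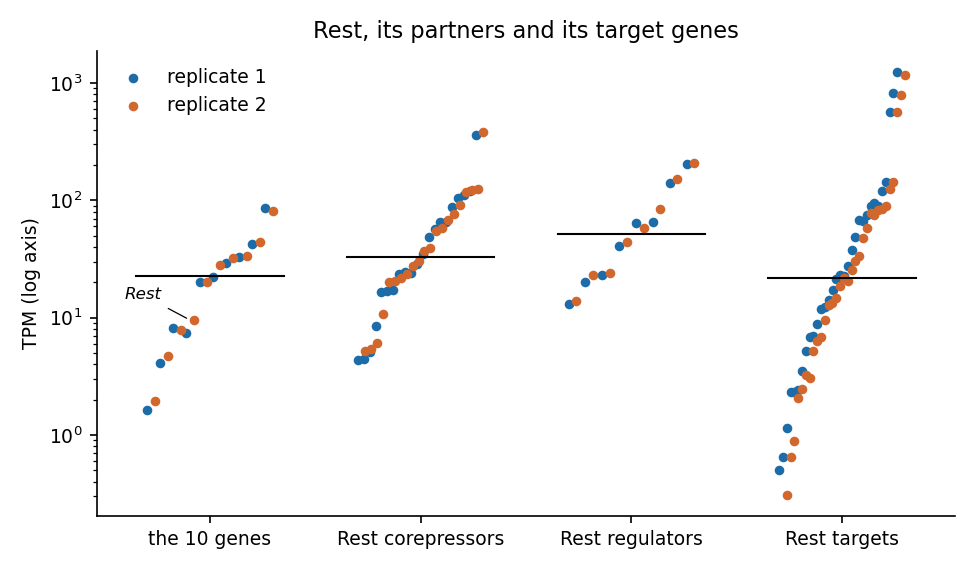
Level in TPM on a log axis, in replicates 1 and 2, of the 10 genes, 21 Rest corepressors, 8 regulators of Rest and 32 Rest targets, ordered by level within each list, with a black line at the median of mean TPM. Rest lies below the median of each list shown, and the targets span from under 1 TPM to 1245 TPM.

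Only Myt1, Myt1l and Rest had more than 1 transcript in the tables, and the other 7 genes had 1 each. For Rest, Rest-201 took 97.2% and 95.4% of the gene's TPM and Rest-202 2.81% and 4.63%. Both carry the same coding sequence of 3246 bases and differ in the first exon, at 77265491 to 77265788 and at 77266196 to 77266413 on chromosome 5. The Rest level therefore came almost wholly from the transcript of the upstream first exon. The neuronal isoform made by Srrm4 was not analysed here.

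Myt1l was split nearly evenly. Myt1l-202 held 53.4% and 48.8% and Myt1l-201 46.6% and 51.2%, so that the leading transcript changed between the libraries. The coding difference is 6 bases at the end of exon 10, chr12:29827832-29827837 on the plus strand. They are printed in capitals, with 30 bases on each side, since the assignment of reads between the transcripts turns partly on this junction.
Myt1l-202: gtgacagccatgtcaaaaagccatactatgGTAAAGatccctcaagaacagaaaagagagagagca
Myt1l-201: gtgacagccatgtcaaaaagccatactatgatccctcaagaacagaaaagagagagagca
The deposited TPM intervals, whose level is not stated, overlapped within replicate 1 (15.9 to 18.4 for Myt1l-202, 13.8 to 16.3 for Myt1l-201) and within replicate 2 (14.4 to 17.2, 15.1 to 18.0). The transcripts could not be ranked. The table gives Myt1l-201 a length of 7104 bases, where the M21 model has 5027.

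Myt1 had 11 transcripts, of which 2 had no reads in either library and 4 reached 5% in at least 1 library. Myt1-201 led with 42.1% and 44.3%, followed by Myt1-204 with 24.9% and 31.3%, Myt1-202 with 13.8% and 11.1%, and Myt1-203 with 14.1% and 7.45%. Together the 4 held 94.9% and 94.2% of the gene's TPM. Myt1-203 lacks a coding exon of 114 bases that Myt1-201 has, at chr2:181802916-181803029. That exon is only part of their coding difference, since the M21 coding sequences are 3267 bases for Myt1-203 and 3507 for Myt1-201. The model of Myt1-204 starts inside the gene and lacks coding exons of 63 and 69 bases. Its coding sequence of 2360 bases is not a whole number of codons, so the model may be incomplete. Where the transcript itself starts was not tested. The deposited intervals of Myt1-203, 2.20 to 7.03 TPM and 0.31 to 6.02 TPM, overlapped between the libraries, so its lower share in replicate 2 was not resolved.

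**Figure D4:**
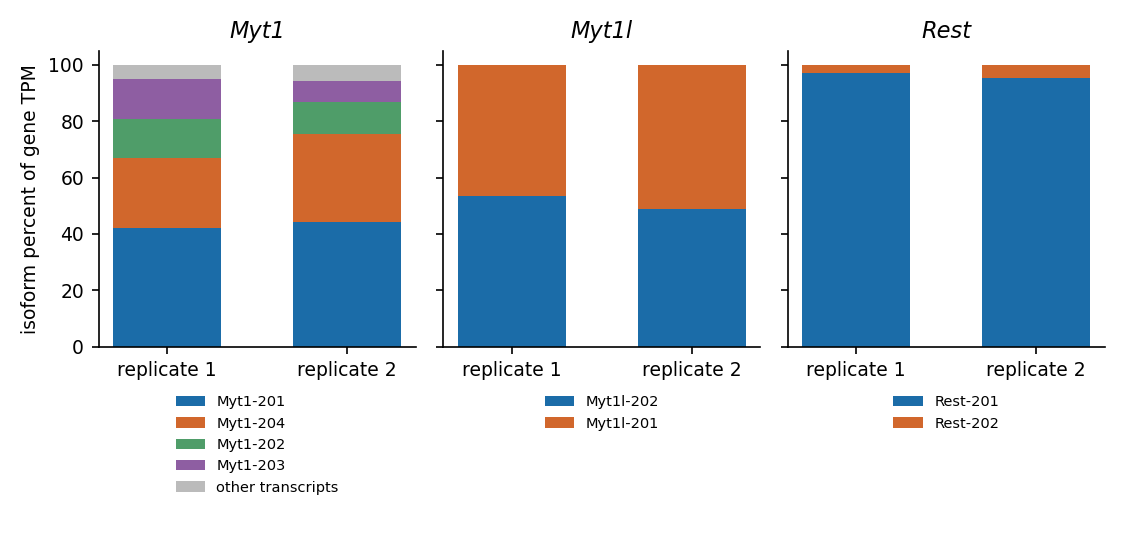
Isoform percent, the share of the gene's TPM given to each transcript, in replicates 1 and 2 for Myt1, Myt1l and Rest, stacked to the gene's total. Myt1-201 is the largest share of Myt1 in both libraries, the Myt1l transcripts are nearly equal, and Rest-201 holds over 95% of Rest.

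Some of the 10 genes overlap others. Neurod1 lies inside the span of Cerkl on the same strand, a gene with 1.77 and 1.53 TPM, and overlaps the antisense Gm26755, which had 0 reads in both libraries. Myt1l overlaps Gm20208 and C630031E19Rik on the opposite strand, which are not in the gene tables. Since the handling of strand is not given in the sources used here, reads from those 2 genes could not be told apart from Myt1l. Rest holds the microRNA gene Mir5098, which had 0 reads in both libraries.

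Promoters were read for motifs, in windows of equal length around each transcription start, most of each window lying before the start (RefSeq, GRCm38.p6). The table held 15 promoters of 8 of the genes, and Insm1 and Rest had no entry. Both strands were searched. The general E-box CANNTG occurred in 12 of the 15 promoters, beside 72.3% of 32851 promoters, which is near that share. Its form CAGATG, preferred by NeuroD factors, occurred in 6 of the 15 promoters, beside 17.2% of all, and belonged to Nhlh1, Nhlh2, Neurod2 and Myt1l. Myt1l alone held 3 of the 6, and 5 of the 15 promoters are its own. A site for each of the 4 genes, for Myt1l that of its most upstream promoter, is printed to show the form in place. The windows hold 30 bases on the gene's strand, with the motif in capitals (CATCTG is CAGATG read on the other strand).
Nhlh1: atgcatggagaaCAGATGtccctgctcccc
Nhlh2: cccacactgtgaCAGATGtcaagtccaatt
Neurod2: agtagagagtgaCAGATGgcggcgggtccc
Myt1l: tatctatgaggcCATCTGttgtggaaaatg
The windows lie at chr1:172057782-172057811 (minus), chr3:102010006-102010035 (plus), chr11:98329746-98329775 (minus) and chr12:29528226-29528255 (plus). The forms CAGCTG and CAGGTG, which overlap CANNTG as CAGATG does, occurred in 3 and in 1 of the 15 promoters, beside 16.3% and 20.2% of all promoters. The left block of the RE1 element, CAGCACC, occurred in none (7.14% of all promoters), and the right block, GGACAGC, occurred in 1 promoter of Myt1l (6.56%). Both blocks starting within 20 bases of each other on a strand occurred in none of the 15, beside 0.158% of all. The Myt motif AAAGTTT occurred in 1 promoter of Myt1 (4.74%). A match is a string of letters, and no binding data for these factors were used here.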

How the data were processed

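Total RNA of mouse neural tube was measured in 2 libraries of 1 group. The authors deposited 1 gene table and 1 transcript table per library, on mm10 with GENCODE M4 per the deposited notes. The aligner and quantifier, like the strand setting, were not given in the sources used here. The deposited expected counts are estimated reads per feature. The deposited TPM are scaled over all 69691 features, spike-ins included, and mouse genes held 87.0% and 87.4% of them. The deposited FPKM, and the authors' posterior mean TPM and counts, served in alternatives. Isoform percent is the authors' share of gene TPM, and the deposited posterior standard deviation of the count, per the file headers, is a score of assignment in reads.

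Symbols and coordinates came from GENCODE M21, which named 42462 of 43346 genes. Expected counts were rounded to whole numbers, scaled by TMM (edgeR 4.0.16, R 4.3.3; DESeq2 1.42.0 size factors as an alternative), with 0.5 added for log2 ratios, and tested by a two-sided exact binomial test (SciPy 1.17.1) where the mean count was 10 or more, with Benjamini-Hochberg adjustment. A call needed an adjusted p under 0.05 and 2-fold. Counting intervals are exact at 95%. Depth was 34125110 and 22311849 estimated reads. Python 3.11.15, NumPy 2.4.6, pandas 2.3.3 and matplotlib 3.10.9 were used, and the test script was checked on simulated data.

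The 10 genes and the lists were chosen with earlier results of these data known. The rule named all 10 genes, the 3 highest genes and the lowest of each list, list genes called 2-fold, and transcripts at 5% or more. Not every gene the rule names in the lists is described, and some are not reported here. Both libraries come from pooled embryos, and the labels do not say whether the pools were separate animals. The p-values cover counting error only and measure no spread between animals, litters or pools.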

Additional observations from a re-analysis of the deposited data

How the results depend on the processing

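All 10 genes were detected under each alternative tried except the 2 TPM level, where 9 were, without Insm1. Rest targets detected ranged from 29 to 31 and corepressors stayed at 21. With no fold limit, 3 of the 10 genes and 4279 of all genes passed, against 0 and 392 in the main test, and at 1.5-fold 709 of all genes passed and 0 of the 10. The log2 ratio of Myt1 over Myt1l was -0.12, and moved to -0.028 with posterior mean TPM and to -0.19 with protein-coding transcripts summed. That sum leaves out transcripts of other types, which held 5.12% and 5.26% of the Myt1 TPM, while the Myt1l mean stayed at 33.28 TPM. The cause of the shift with posterior mean TPM was not tested. The ratios of Nhlh1 over Nhlh2 and Neurod1 over Neurod4 kept direction and size under every alternative, left-out libraries included. Mean levels of 8 of the 10 genes moved by more than their SD with TPM rescaled over mouse genes, and those of Neurod2, Nhlh1 and Myt1l also with posterior mean TPM. No paired analysis was possible because there is 1 group. Insm1 and Neurod4, with 84 to 300 reads, are the least precise.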
